A study of Homo sapiens with 9 samples.

Results

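AMTN encodes amelotin, a secreted protein of enamel-forming and gum attachment epithelium. Together with ODAM, AMBN, ENAM, SPP1 and IBSP it belongs to the secretory calcium-binding phosphoprotein genes of chromosome 4. These 6 genes were taken by symbol from the probe sets annotated to exactly 1 gene. Each had 1 such probe set, so they make up 6 of the 14413 probe sets of 1 gene, in a table of 17859 probe sets in all. AMTN was chosen by its measured level, which differed between the groups on these same arrays, so its values are given as a description, without a test. The other 5 were taken as its family.

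RNA came from SKOV3, an established human ovarian tumour cell line, grown in flasks for 3 days in medium with serum. Cells received 50 µM peracetylated 4-deoxy-GlcNAc (Ac-4-deoxy-GlcNAc), 50 µM peracetylated GlcNAc (Ac-GlcNAc) or no treatment, with 3 flasks and 3 arrays in each group. GlcNAc is the amino sugar N-acetylglucosamine, and the 4-deoxy analog lacks the hydroxyl at carbon 4, where the parent compound carries an acetylated oxygen. Acetyl groups let such sugars pass the cell membrane. Whether untreated flasks received a vehicle is not given in the sources used here, and all flasks held a single cell line.

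The secretory calcium-binding phosphoproteins are thought to descend from a SPARC-related gene by duplication, and they bind calcium and steer mineral growth in tooth, bone, milk and saliva. One branch is rich in proline and glutamine. Within it, ameloblastin (AMBN) and enamelin (ENAM) build the early enamel matrix, while amelotin and ODAM are made later and line the epithelium's attachment to the tooth. The acidic branch includes osteopontin (SPP1), a ligand of integrins and CD44 that many tumours secrete, and bone sialoprotein (IBSP), a protein of mineralising bone.

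The proximal promoters are shown first, because 5 of the 6 genes carry the same letters shortly before their start. The sequence from 80 to 21 bases before the RefSeq start (build GRCh38.p14, plus strand, position -1 being the base before the start) is printed for each gene, with the letters TGATTGG and TTTAAA in capitals.
AMTN, chr4:70518489-70518548: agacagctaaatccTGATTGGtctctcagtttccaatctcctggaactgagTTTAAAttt
ODAM, chr4:70195645-70195704: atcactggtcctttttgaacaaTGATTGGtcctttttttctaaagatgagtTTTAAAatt
AMBN, chr4:70592176-70592235: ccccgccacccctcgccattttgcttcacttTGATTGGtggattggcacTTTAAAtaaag
ENAM, chr4:70628664-70628723: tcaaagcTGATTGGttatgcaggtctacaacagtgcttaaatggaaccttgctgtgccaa
IBSP, chr4:87799474-87799533: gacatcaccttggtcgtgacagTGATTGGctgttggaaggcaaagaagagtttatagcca
SPP1, chr4:87975634-87975693: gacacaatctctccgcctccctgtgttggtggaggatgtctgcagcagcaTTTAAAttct

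The letters TGATTGG hold ATTGG, which is the CCAAT box read on the opposite strand. They began at position -66 in AMTN, -58 in ODAM and IBSP, -49 in AMBN and -73 in ENAM, and were not found in the 300 bases of SPP1. Searched on both strands, they occur in 6.95% of the 35116 promoter sequences of the same length, and on the gene's own strand within this window in 1.55%. TTTAAA, which reads alike on both strands, lay in the window in AMTN, ODAM, AMBN and SPP1, against 2.8% of all promoters. ENAM is listed with a second start, which held neither. Of 24 other family genes and SPARC relatives, 21 had a promoter sequence, and TGATTGG was found in 4 of them. In DSPP, DMP1 and MEPE, the other bone and dentin genes of the acidic branch, it began at -57, -59 and -60, and in OPRPN at -173. The motifs were chosen after the sequences had been read, and a match is a description of letters, not of a bound factor. CCAAT and AACCACA were searched too. On the gene's own strand within the window, CCAAT lay in 1 of the 6 genes and 6.57% of all promoters, and AACCACA in 0 and 0.382%. On either strand of the 300 bases, CCAAT was found in 5 of the 6 and 34.6% of all, and AACCACA in 1 and 4.27%.

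The whole AMTN promoter, chr4:70518319-70518618, is given because AMTN is the member whose level differed most between the groups. It runs from 250 bases before to 50 bases after the start, with the same letters in capitals.
AMTN: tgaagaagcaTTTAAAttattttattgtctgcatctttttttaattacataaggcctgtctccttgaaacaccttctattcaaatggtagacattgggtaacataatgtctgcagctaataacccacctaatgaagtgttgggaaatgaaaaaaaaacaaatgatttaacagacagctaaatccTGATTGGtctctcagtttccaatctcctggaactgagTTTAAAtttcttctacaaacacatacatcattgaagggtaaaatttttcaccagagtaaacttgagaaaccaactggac

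AMTN had log2 values of 8.82, 9.05 and 9.17 on the Ac-4-deoxy-GlcNAc arrays, 10.48, 10.42 and 10.40 on the Ac-GlcNAc arrays, and 11.04, 11.28 and 11.40 on the untreated arrays. The groups stood in the order Ac-4-deoxy-GlcNAc, Ac-GlcNAc, untreated from low to high, and no array of any group reached the next group. Every AMTN value lay above the median of its array, which was 6.58 to 6.65. These levels are per array of bulk RNA, so fewer cells with the transcript and less transcript per cell cannot be told apart. The mean was 9.02 ± 0.18 with Ac-4-deoxy-GlcNAc, 10.44 ± 0.04 with Ac-GlcNAc and 11.24 ± 0.18 in untreated cells (SD, n = 3 each).

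The level with Ac-4-deoxy-GlcNAc was 21.4% of the untreated level, a log2 difference of -2.22 (SE 0.12). The nearest arrays of these groups were 1.86 apart on the log2 scale. With Ac-GlcNAc the level was 57.3% of the untreated level (log2 -0.80, SE 0.12), and the nearest arrays were 0.55 apart. The compounds at the same dose and time differed as well: the level with Ac-4-deoxy-GlcNAc was 37.4% of that with Ac-GlcNAc (log2 -1.42, SE 0.12). These 3 differences share arrays with each other, and no interval is given for them because AMTN was chosen by these values. Counted from the largest fall among the 17859 probe sets, AMTN was 1st with Ac-4-deoxy-GlcNAc against untreated, 44th with Ac-GlcNAc against untreated and 3rd between the compounds. The place of 44 was not stable: dropping an untreated array made it 62 (replicate 1), 18 (replicate 2) or 169 (replicate 3).

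**Figure D1:**
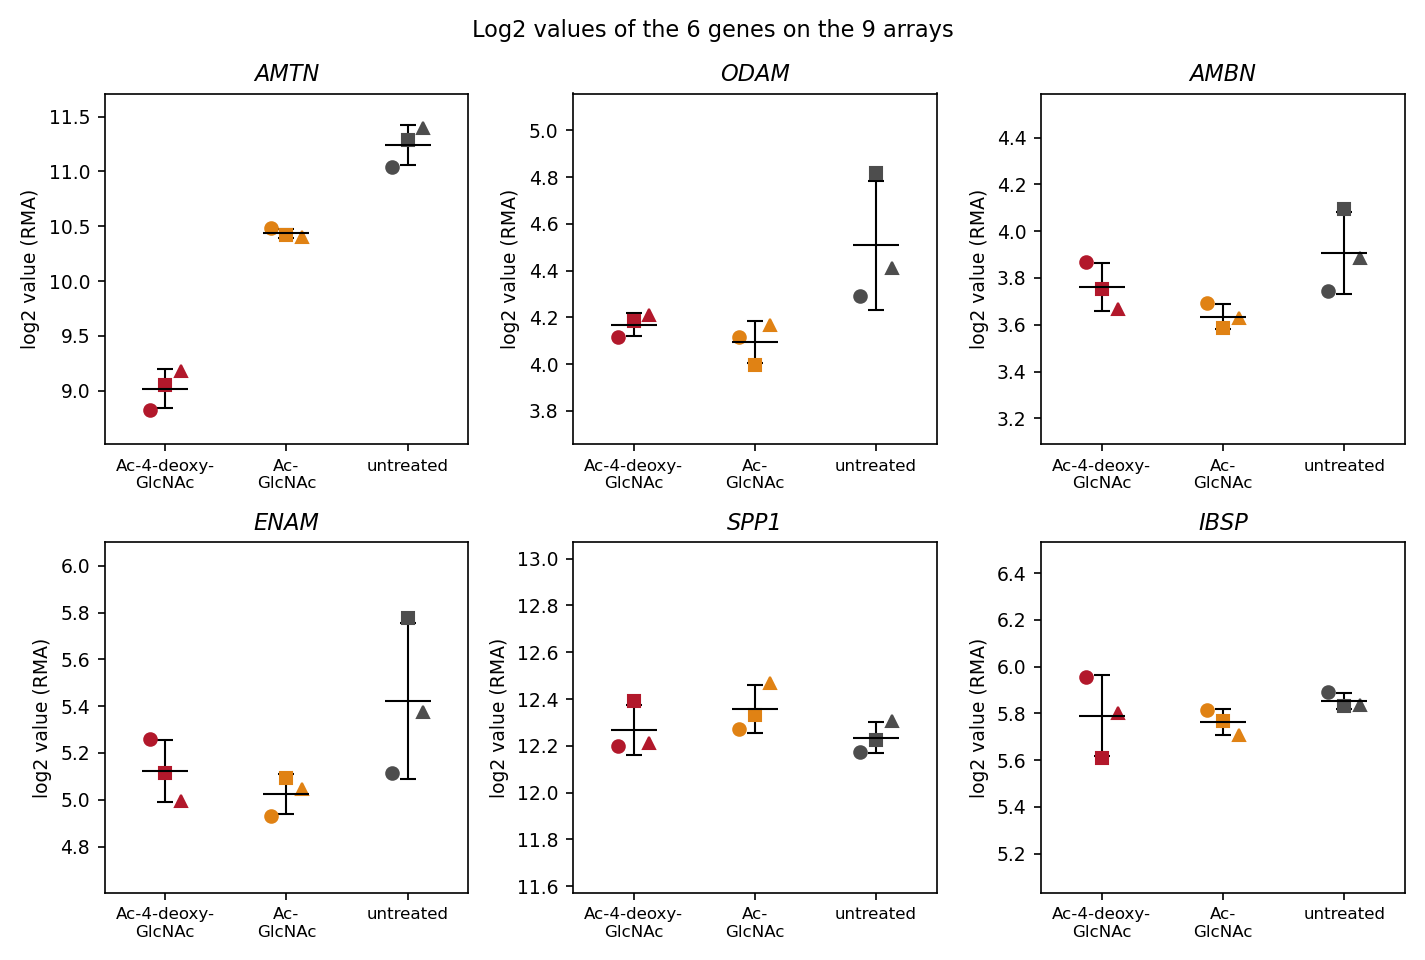
Log2 values (RMA, vertical axis) of the 6 genes by group; circles, squares and triangles are replicates 1, 2 and 3, and bars show the mean ± SD of 3 arrays. AMTN spans 2.58 over the 9 arrays on its wider axis, while the other panels share a narrower span of which the values cover at most 0.847.

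The other 3 genes of the proline- and glutamine-rich branch lay below the median of every array. ODAM, the partner of amelotin in the attachment epithelium, had 4.11, 4.18 and 4.21 with Ac-4-deoxy-GlcNAc, 4.12, 4.00 and 4.17 with Ac-GlcNAc, and 4.29, 4.82 and 4.41 in untreated cells. Both treated groups were lower than every untreated array, and untreated replicate 2 was the highest array of all. The difference was -0.34 with Ac-4-deoxy-GlcNAc (SE 0.12, 95% interval -0.61 to -0.07, limma adjusted p = 0.0891) and -0.41 with Ac-GlcNAc (SE 0.12, -0.68 to -0.15, adjusted p = 0.0939), and neither passed 0.05. Without untreated replicate 2 these were -0.18 and -0.26 (adjusted p = 0.274 and 0.301). Without untreated replicate 1 they were -0.45 and -0.52 and passed (adjusted p = 0.0335 and 0.0392). That last fit called 17.2% of all probe sets with Ac-4-deoxy-GlcNAc and 7.61% with Ac-GlcNAc, against 11.0% and 0.442% in the main fit.

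ENAM, the largest enamel matrix protein, had 5.26, 5.12 and 4.996 with Ac-4-deoxy-GlcNAc, 4.93, 5.09 and 5.05 with Ac-GlcNAc, and 5.12, 5.78 and 5.38 in untreated cells. Untreated replicate 2 was again the highest array, and the Ac-4-deoxy-GlcNAc and untreated arrays overlapped. The difference was -0.30 with Ac-4-deoxy-GlcNAc (-0.60 to 0.01, adjusted p = 0.169) and -0.40 with Ac-GlcNAc (-0.70 to -0.09, adjusted p = 0.12). Without untreated replicate 2 they were -0.12 and -0.22 (adjusted p = 0.559 and 0.419). Without untreated replicate 1 they were -0.45 and -0.55 (adjusted p = 0.0381 and 0.0387), in the fit that called 17.2% and 7.61% of all probe sets.

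AMBN, the second most abundant protein of forming enamel, had 3.87, 3.75 and 3.67 with Ac-4-deoxy-GlcNAc, 3.69, 3.58 and 3.63 with Ac-GlcNAc, and 3.74, 4.09 and 3.89 in untreated cells. It lay near the bottom of the scale, with a mean level above only 1.99% of probe sets, and its values spanned 0.509. The differences from untreated were -0.15 with Ac-4-deoxy-GlcNAc (-0.37 to 0.08, adjusted p = 0.354) and -0.27 with Ac-GlcNAc (-0.50 to -0.04, adjusted p = 0.138). With Ac-4-deoxy-GlcNAc the sign turned after cyclic loess (0.07). Without untreated replicate 2 the differences were -0.05 and -0.18 (adjusted p = 0.784 and 0.447).

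Across the whole table the difference from untreated depended on level. On untreated replicate 2 the 10th percentile of values was 4.55, against 4.06 to 4.25 on the other 8 arrays. The probe sets were put into 4 equal classes by mean level. In the dimmest class of 4464, which holds ODAM and AMBN, the median difference was -0.18 with Ac-4-deoxy-GlcNAc and -0.23 with Ac-GlcNAc. In the next class, with ENAM and IBSP, it was -0.09 and -0.09, and in the brightest, with AMTN and SPP1, 0.06 and 0.11. Without untreated replicate 2 the medians were -0.08 and -0.13 in the dimmest class, -0.04 and -0.05 in the next, and 0.02 and 0.07 in the brightest. The AMTN differences of -2.22 and -0.80 had the opposite sign to the median of their own class. AMTN was chosen by these values, so this is a description. After cyclic loess, which evens out differences between arrays that depend on level, the values were -0.16 and -0.19 for ODAM, -0.18 and -0.26 for ENAM, and -2.29 and -0.92 for AMTN. What part the narrower range of untreated replicate 2 has in the values of the dim genes was not tested.

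**Figure D2:**
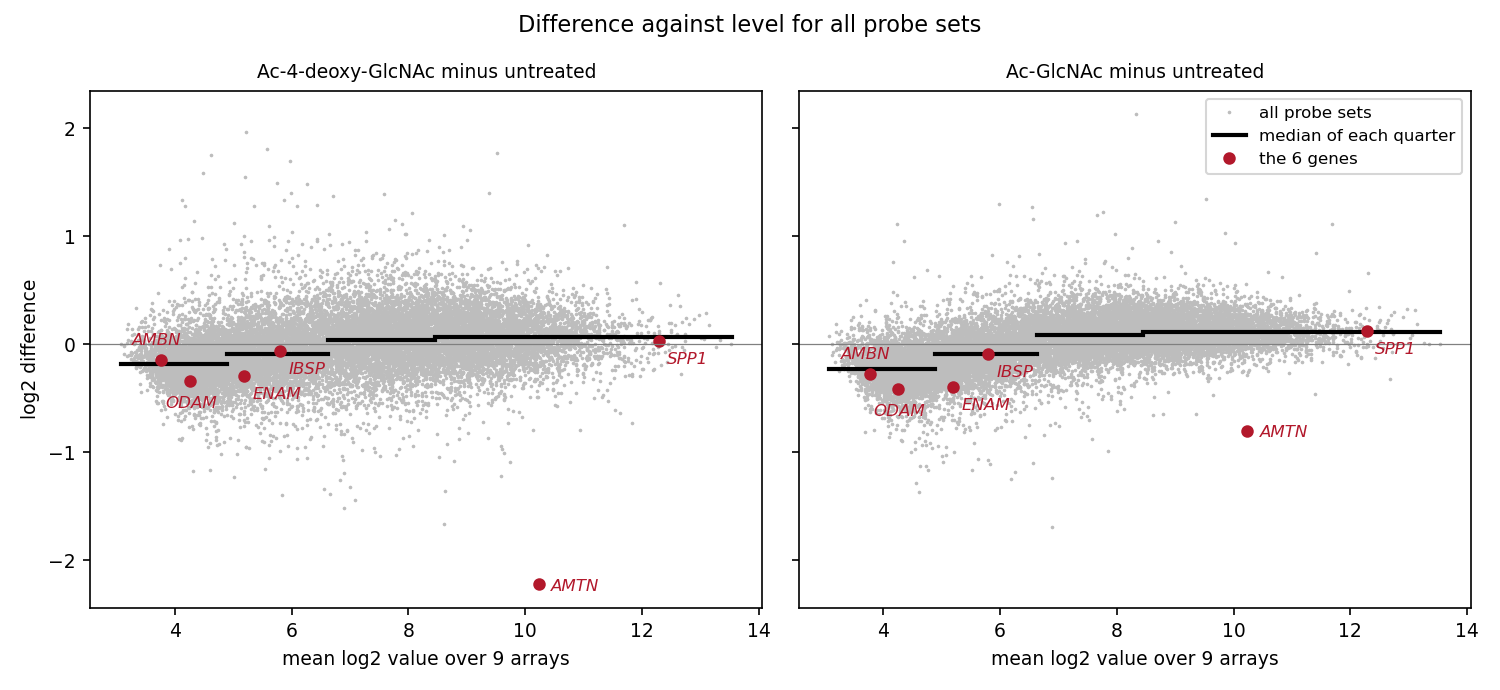
Log2 difference from untreated cells (vertical axis) against mean log2 value over 9 arrays (horizontal axis) for all 17859 probe sets in grey, with the median of each of 4 level classes as black lines and the 6 genes in red. AMTN is the lowest point of all at -2.22 with Ac-4-deoxy-GlcNAc, while 43 probe sets lie lower than its -0.80 with Ac-GlcNAc.

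In the acidic branch, SPP1 was bright on every array and differed little between groups. It had 12.20, 12.39 and 12.21 with Ac-4-deoxy-GlcNAc, 12.27, 12.33 and 12.47 with Ac-GlcNAc, and 12.17, 12.22 and 12.30 in untreated cells. All 3 groups overlapped, and the 9 arrays spanned 0.295. The difference was 0.03 with Ac-4-deoxy-GlcNAc (-0.18 to 0.24, adjusted p = 0.836) and 0.12 with Ac-GlcNAc (-0.09 to 0.33, adjusted p = 0.421). Saturation of this bright probe set could not be assessed.

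IBSP had 5.96, 5.61 and 5.80 with Ac-4-deoxy-GlcNAc, 5.81, 5.77 and 5.71 with Ac-GlcNAc, and 5.89, 5.83 and 5.83 in untreated cells. The Ac-4-deoxy-GlcNAc arrays covered the range of all the others. Its differences were -0.06 with Ac-4-deoxy-GlcNAc (-0.28 to 0.15, adjusted p = 0.689) and -0.09 with Ac-GlcNAc (-0.31 to 0.13, adjusted p = 0.575).

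Of the 5 tested members, 0 were called with either compound by limma at an adjusted p under 0.05. Over all probe sets 11.0% were called with Ac-4-deoxy-GlcNAc (5.38% higher, 5.64% lower) and 0.442% with Ac-GlcNAc (0.207% higher, 0.235% lower). At an unadjusted p under 0.05 in the same fit ODAM passed with Ac-4-deoxy-GlcNAc, and ODAM, AMBN and ENAM passed with Ac-GlcNAc, against 31.2% and 26.4% of all probe sets. The arrays did not overlap for ODAM with Ac-4-deoxy-GlcNAc, nor for ODAM, AMBN, ENAM and IBSP with Ac-GlcNAc. All of these were lower than untreated. Such gaps were found in 32.1% of all probe sets with Ac-4-deoxy-GlcNAc (13.0% higher, 19.1% lower) and in 32.3% with Ac-GlcNAc (13.0% higher, 19.3% lower).

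Between the compounds, 0 of the 5 were called by limma and 0 were free of overlap. Of all probe sets 2.38% were called (0.896% higher, 1.48% lower) and 21.2% did not overlap (9.56% higher, 11.6% lower). The differences, Ac-4-deoxy-GlcNAc minus Ac-GlcNAc, were 0.08 for ODAM (-0.19 to 0.34), 0.13 for AMBN (-0.10 to 0.35), 0.10 for ENAM (-0.21 to 0.41), -0.09 for SPP1 (-0.30 to 0.12) and 0.03 for IBSP (-0.19 to 0.24). Their adjusted p-values ran from 0.739 to 0.973, and at an unadjusted p under 0.05 none passed either. The intervals reach at most 0.41 from 0, and a p that misses the threshold does not show that the compounds act alike on these genes. Whether AMTN differs from its relatives was not tested, because AMTN had been chosen for its change.

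**Figure D3:**
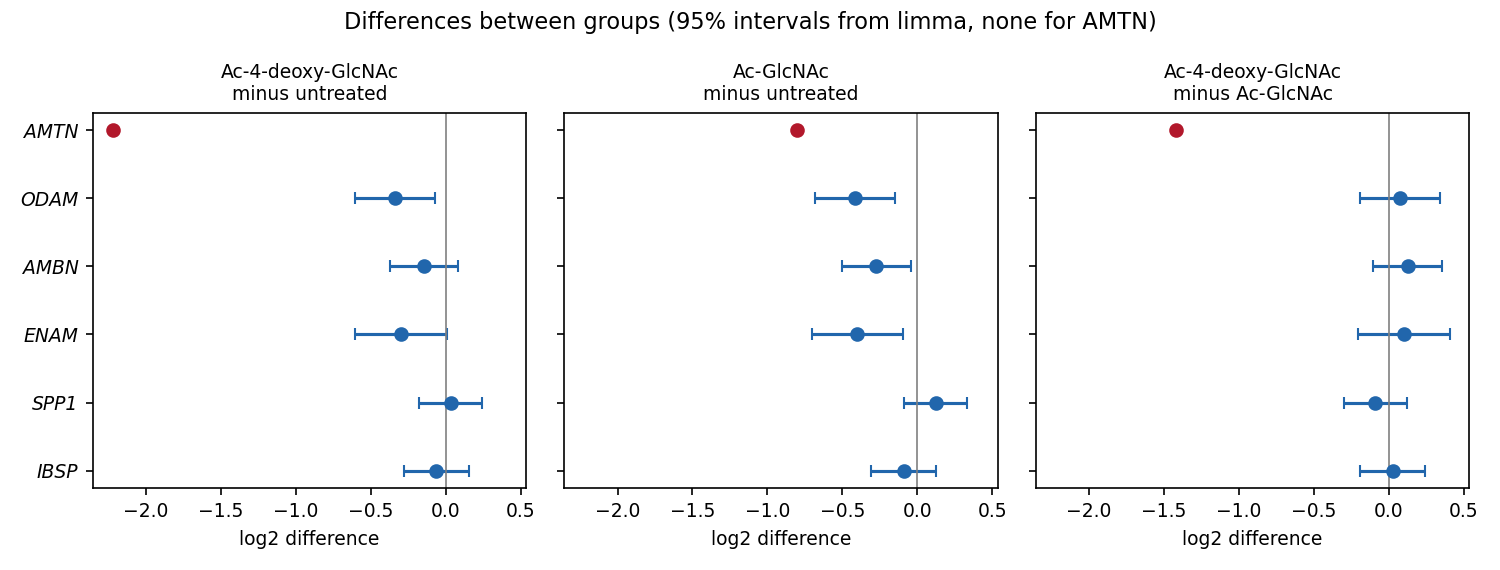
Log2 differences (horizontal axis) of the 6 genes, with 95% limma intervals for the 5 relatives and none for AMTN, for each compound against untreated cells and for one compound, Ac-4-deoxy-GlcNAc, against the other. The AMTN points lie at -2.22, -0.80 and -1.42, and the relatives' differences run from -0.41 to 0.13.

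The genes next to AMTN on chromosome 4 give its local context. Gene order came from a RefSeq table of assembly GRCh38.p14, and the authors' build was hg18, so it was used for order alone. Of the 12 protein-coding genes on each side of AMTN, 20 had a probe set of 1 gene, ODAM, AMBN and ENAM among them. Under Ac-4-deoxy-GlcNAc 5 fell and 1 rose, against 5.64% and 5.38% of all probe sets. The median difference was -0.27 against -0.05 over all probe sets. Without untreated replicate 2 the counts were 3 and 1, with a median of -0.13, and 5.62% of all probe sets were called. The nearest measured neighbours, MUC7 (a salivary mucin) and AMBN, differed by -0.46 (SE 0.15, adjusted p = 0.0573) and -0.15, and were not called. With Ac-GlcNAc 1 of the 20 fell and 0 rose, against 0.442% of all probe sets called. An unadjusted p under 0.05 was found for 13, against 26.4% of all probe sets. Their median there was -0.296, but -0.161 after cyclic loess and -0.157 without untreated replicate 2, and 0 were called in either setting.

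OPRPN, which encodes the precursor of the salivary peptide opiorphin, fell by 0.94 with Ac-4-deoxy-GlcNAc (SE 0.16, adjusted p = 0.00339) and passed in all 6 fits that dropped 1 of the compared arrays. Its level was 5.57 ± 0.33 with Ac-4-deoxy-GlcNAc, 5.74 ± 0.13 with Ac-GlcNAc and 6.52 ± 0.23 in untreated cells (SD, n = 3 each). With Ac-GlcNAc it also fell, by 0.78 (adjusted p = 0.0494), but that call was lost in 5 of the 6 such fits, without untreated replicate 2 or 3 or any Ac-GlcNAc array (adjusted p = 0.0556 to 0.224). The calcium-binding salivary protein STATH fell by 0.66 with Ac-4-deoxy-GlcNAc (SE 0.13, adjusted p = 0.00747) and kept its call in all 6 fits. CSN3, the milk protein kappa-casein, fell by 0.56 (adjusted p = 0.0215), and was not called without untreated replicate 2 or Ac-4-deoxy-GlcNAc replicate 3 (adjusted p = 0.0687 and 0.102). STATH and CSN3 lie in the dimmest level class, where the median difference was -0.18, or -0.08 without untreated replicate 2.

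On the other side of AMTN, RUFY3 rose by 0.64 with Ac-4-deoxy-GlcNAc (SE 0.14, adjusted p = 0.0165), a call lost on dropping replicate 1 or 3 of that group (adjusted p = 0.0507 to 0.0532). NPFFR2, a neuropeptide receptor, fell by 0.58 (adjusted p = 0.0136; 0.0709 without Ac-4-deoxy-GlcNAc replicate 3). The bicarbonate transporter SLC4A4 fell by 0.39 (adjusted p = 0.0439), and was not called without untreated replicate 2 or 3 or Ac-4-deoxy-GlcNAc replicate 1 or 3 (adjusted p = 0.0691 to 0.158). Between the compounds RUFY3 was higher under Ac-4-deoxy-GlcNAc (0.74, adjusted p = 0.0178), and 2 of the 6 reduced fits kept that call (adjusted p = 0.0532 to 0.0781 without Ac-GlcNAc replicate 1 or 2 or Ac-4-deoxy-GlcNAc replicate 1 or 3).

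Around SPP1, 18 of 24 neighbours were measured, IBSP among them, with a median of -0.11 under Ac-4-deoxy-GlcNAc. Limma called 11.0% of all probe sets there, and of the 18 neighbours 1 fell and 0 rose. This was NAP1L5, which fell by 0.34 (adjusted p = 0.0384) and was called only without untreated replicate 1 among the 6 such fits (0.059 to 0.165 in the others). The nearest measured neighbours were MEPE, a bone matrix phosphoprotein (-0.36, SE 0.13, adjusted p = 0.0903), and, with PKD2 not measured, ABCG2, a drug exporter (-0.20, adjusted p = 0.236). With Ac-GlcNAc 0 of the 18 were called by limma, against 0.442% of all probe sets. An unadjusted p under 0.05 was found for 5, against 26.4% of all probe sets.

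**Figure D4:**
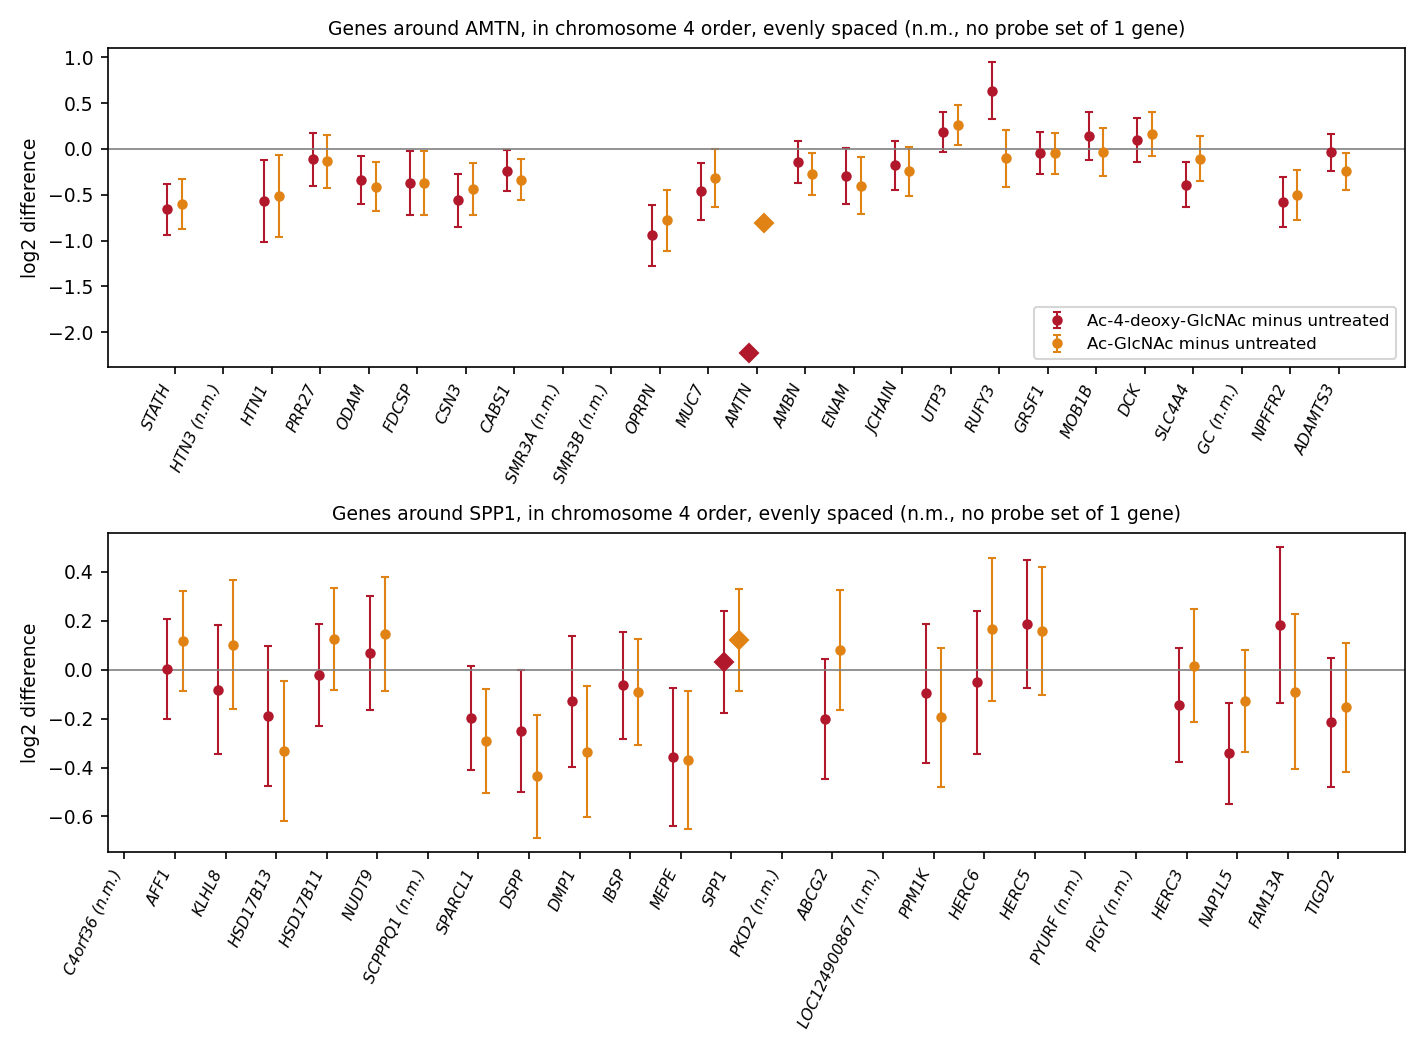
Log2 differences from untreated cells (vertical axis), with 95% intervals except for AMTN, for the genes around AMTN and around SPP1, evenly spaced in chromosome order, with AMTN and SPP1 as diamonds. AMTN at -2.22 and -0.80 is flanked by MUC7 at -0.46 and -0.32 and AMBN at -0.15 and -0.27.

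Of 19 measured genes among the other family members and SPARC relatives, 4 fell and 0 rose with Ac-4-deoxy-GlcNAc, with a median of -0.32. Without untreated replicate 2, 3 fell (median -0.205). The shares called over all probe sets were 11.0% and 5.62%. Besides OPRPN, STATH and CSN3 the 4 included SPARC, a collagen-binding matrix protein, from whose relatives the family is thought to derive. SPARC had a level of 10.50 ± 0.07 with Ac-4-deoxy-GlcNAc, 11.03 ± 0.06 with Ac-GlcNAc and 11.30 ± 0.10 in untreated cells (SD, n = 3 each). It fell by 0.80 with Ac-4-deoxy-GlcNAc against untreated (SE 0.09, adjusted p = 0.000488, called in all 6 fits), and by 0.53 against Ac-GlcNAc (adjusted p = 0.0101; 0.0523 without Ac-GlcNAc replicate 3). The bone and dentin genes DSPP and DMP1 differed by -0.25 and -0.13 with Ac-4-deoxy-GlcNAc (adjusted p = 0.16 and 0.493). With Ac-GlcNAc 1 of the 19 fell, OPRPN, and 0 without untreated replicate 2. An unadjusted p under 0.05 was found for 15 of them there, against 26.4% of all probe sets. The median of the 19 with Ac-GlcNAc was -0.336, but -0.132 after cyclic loess and -0.205 without untreated replicate 2. Limma called 0.442% of all probe sets in this comparison.

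Among 16 measured genes of enamel formation, 4 fell and 0 rose with Ac-4-deoxy-GlcNAc, with a median of -0.04, and 2 fell without untreated replicate 2. Over all probe sets 11.0% were called, and 5.62% without that array. ITGB6, the integrin beta 6 subunit, fell by 0.88 (SE 0.11, adjusted p = 0.000808) and CA2, a carbonic anhydrase, by 0.83 (SE 0.12, adjusted p = 0.0014), each in all 6 fits. DLX3, a homeobox factor of teeth and hair, fell by 0.58 (adjusted p = 0.0211), and was not called without untreated replicate 2 or 3 or Ac-4-deoxy-GlcNAc replicate 1 or 3 (adjusted p = 0.0535 to 0.066). The fourth was SLC4A4. MMP20, the enamel protease, had a level of 4.02 ± 0.03 with Ac-4-deoxy-GlcNAc, 3.94 ± 0.01 with Ac-GlcNAc and 4.07 ± 0.11 in untreated cells (SD, n = 3 each), below the array median throughout, and was not called. Between the compounds CA2 was lower under Ac-4-deoxy-GlcNAc (-0.60, adjusted p = 0.0155, and 0.0787 to 0.079 without Ac-GlcNAc replicate 3 or Ac-4-deoxy-GlcNAc replicate 1). With Ac-GlcNAc against untreated 0 of the 16 were called by limma (all probe sets, 0.442%), and 4 had an unadjusted p under 0.05 (all probe sets, 26.4%).

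Genes of the hemidesmosome, the junction that fixes epithelium to its basal lamina, were represented by 8 probe sets. With Ac-4-deoxy-GlcNAc 2 fell and 1 rose, against 11.0% of all probe sets called. ITGB4, the integrin beta 4 subunit at its core, fell by 1.09 against untreated (SE 0.09, adjusted p = 5.59e-05) and by 0.78 against Ac-GlcNAc (SE 0.09, adjusted p = 0.00102), each in all 6 fits. Its partner ITGA6 differed by -0.20 and -0.28 and was not called (adjusted p = 0.267 and 0.312). KRT14, a basal keratin, fell by 0.96 (adjusted p = 0.0265; 0.121 without Ac-4-deoxy-GlcNAc replicate 3), where the untreated arrays had an SD of 0.69, and by 0.56 without untreated replicate 2. DST, a cytoskeletal linker of the junction, rose by 0.58 (adjusted p = 0.016; 0.0557 without Ac-4-deoxy-GlcNAc replicate 1). DST was higher between the compounds too (0.61, adjusted p = 0.0273), a call lost in 5 of the 6 fits, without any Ac-GlcNAc array or Ac-4-deoxy-GlcNAc replicate 1 or 3 (adjusted p = 0.0668 to 0.118). Against untreated, Ac-GlcNAc gave 0 limma calls among the 8 (all probe sets, 0.442%), and 2 had an unadjusted p under 0.05 (all probe sets, 26.4%).

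Osteopontin works through receptors and is cut by proteases, and of 16 measured genes for these, 4 fell and 1 rose with Ac-4-deoxy-GlcNAc. Without untreated replicate 2, 3 fell and 0 rose. The share called over all probe sets was 11.0%, and 5.62% without that array. The matrix protease MMP7 fell by 0.87 (SE 0.11, adjusted p = 0.000745, in all 6 fits), and ITGB6 belongs here also. MMP2 fell by 0.41 (adjusted p = 0.0234), and was not called without untreated replicate 3 or Ac-4-deoxy-GlcNAc replicate 1 or 2 (adjusted p = 0.0511 to 0.0792). The urokinase gene PLAU fell by 0.38 (adjusted p = 0.036), and was called only without Ac-4-deoxy-GlcNAc replicate 3 among the 6 fits (0.057 to 0.106 in the others). CD44, the hyaluronan and osteopontin receptor, rose by 0.36 (adjusted p = 0.0499), was not called after cyclic loess (adjusted p = 0.0545), and lost its call without untreated replicate 2 or 3 or Ac-4-deoxy-GlcNAc replicate 1 or 3 (0.0974 to 0.196). The integrin subunits ITGAV, ITGB1, ITGB3 and ITGB5, which carry osteopontin receptors, differed by -0.23, 0.16, -0.06 and -0.03 and were not called. MMP2 was lower between the compounds (-0.46, adjusted p = 0.0314), in 1 of the 6 fits, the one without Ac-4-deoxy-GlcNAc replicate 3 (0.0703 to 0.162 in the others). For Ac-GlcNAc against untreated limma called 0 of the 16 (all probe sets, 0.442%), and 5 had an unadjusted p under 0.05 (all probe sets, 26.4%). MMP7 differed by -0.48 there (adjusted p = 0.0678). It was called after cyclic loess (-0.58, adjusted p = 0.0391), where 0.263% of all probe sets were called, and after quantile normalization (adjusted p = 0.0468).

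Of 30 measured transcription regulators of tooth and bone matrix genes, 3 fell and 1 rose with Ac-4-deoxy-GlcNAc, and 1 fell and 0 rose without untreated replicate 2. Those counts stood beside 11.0% and 5.62% of all probe sets called. The vitamin D receptor VDR fell by 0.45 (SE 0.10, adjusted p = 0.0129; 0.0543 without Ac-4-deoxy-GlcNAc replicate 1). DLX2, a homeobox factor, fell by 0.48 (adjusted p = 0.0274) and EPAS1, the hypoxia factor HIF-2 alpha, rose by 0.37 (adjusted p = 0.0261). DLX2 was not called without untreated replicate 2 or 3 or Ac-4-deoxy-GlcNAc replicate 1 or 3 (0.0746 to 0.122), and EPAS1 not without untreated replicate 2 or any Ac-4-deoxy-GlcNAc array (0.0538 to 0.0971). DLX3 was the other fall. RUNX2, the osteoblast factor known to act on SPP1 and IBSP, stood at 8.95 ± 0.03 with Ac-4-deoxy-GlcNAc, 8.92 ± 0.14 with Ac-GlcNAc and 8.92 ± 0.15 in untreated cells (SD, n = 3 each), a difference of 0.03 with Ac-4-deoxy-GlcNAc (adjusted p = 0.867). Of the 30, limma called 0 with Ac-GlcNAc against untreated and 0 between the compounds, against 0.442% and 2.38% of all probe sets. In these comparisons 6 and 4 had an unadjusted p under 0.05, against 4719 and 2429 of all 17859 probe sets.

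Limma called 11.0% of all probe sets with Ac-4-deoxy-GlcNAc, and 5.62% without untreated replicate 2. Of 19 genes of phosphate and mineral handling, SPP1 and IBSP among them, 3 fell and 0 rose in both fits. They were the collagen chains COL1A1 (-0.92, SE 0.09, adjusted p = 0.000176) and COL1A2 (-0.85, SE 0.10, adjusted p = 0.000576) and the phosphate-regulating hormone STC1 (-0.58, SE 0.11, adjusted p = 0.0065), each called in all 6 fits. A further probe set names COL1A2 together with PNLIP and was not used. COL1A1 and STC1 were also lower than with Ac-GlcNAc, by log2 -0.56 and -0.54 (adjusted p = 0.00781 and 0.021). The COL1A1 call was lost without Ac-GlcNAc replicate 1 (0.0525), and the STC1 call without Ac-GlcNAc replicate 1 or 2 or Ac-4-deoxy-GlcNAc replicate 1 or 3 (0.0812 to 0.106). Over all probe sets 0.442% were called with Ac-GlcNAc against untreated and 2.38% between the compounds. With Ac-GlcNAc against untreated 1 rose, TNFRSF11B, the decoy receptor osteoprotegerin, by 0.63 (adjusted p = 0.0356). Between the compounds it was lower under Ac-4-deoxy-GlcNAc (-0.48, adjusted p = 0.0389). The rise was lost without untreated replicate 2 or any Ac-GlcNAc array (0.0909 to 0.159). The difference between the compounds was lost in 5 of 6 fits, all but the one without Ac-4-deoxy-GlcNAc replicate 3 (0.0841 to 0.187). After cyclic loess COL1A1 was called as lower with Ac-GlcNAc than in untreated cells (-0.48, adjusted p = 0.043), but not after quantile normalization (adjusted p = 0.0503).

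Over all 127 measured genes of these lists other than the 6 members, 18.9% were called under Ac-4-deoxy-GlcNAc (20 fell, 4 rose), against 11.0% of all probe sets. With Ac-GlcNAc it was 1.57% against 0.442%, and between the compounds 7.09% against 2.38%. The lists were chosen with earlier results of these data known and overlap, so these shares are not independent evidence of a shift.

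The genes whose values ran most like AMTN were sought by Pearson's r over the 9 arrays among 910 probe sets of 1 gene with an SD of at least 0.3. The 8 highest were NMUR2 (r = 0.986), SPARC (0.983), COL1A1 (0.982), ITGB4 (0.980), HES1 (0.980), VSNL1 (0.975), FOXS1 (0.971) and RNF212 (0.968). In all 8, mean levels stood in the order Ac-4-deoxy-GlcNAc, Ac-GlcNAc, untreated from low to high. This is the order of AMTN, by which they were picked, so it is not a separate result. NMUR2, a neuromedin U receptor, came nearest in size, at 7.72 ± 0.04, 8.74 ± 0.13 and 9.39 ± 0.12 in these groups (SD, n = 3 each). Among the others, SPARC and COL1A1 are matrix proteins, ITGB4 a hemidesmosome integrin, HES1 a repressor downstream of Notch, VSNL1 a neuronal calcium sensor and FOXS1 a forkhead factor. The 4 most opposed were PHGDH (r = -0.978), an enzyme of serine synthesis, TTC17 (-0.976), GRK3 (-0.974) and CYP24A1 (-0.972), the vitamin D 24-hydroxylase.

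These correlations mostly repeat the group means, since each group gives 3 of the 9 points, and 57 of the 910 had r of at least 0.9. For the deviations of single arrays from their group means, r with AMTN was 0.864 for HES1, 0.652 for RNF212 and 0.445 for FOXS1. It was 0.377 for SPARC, 0.288 for COL1A1, 0.19 for NMUR2, 0.17 for ITGB4 and 0.09 for VSNL1. Among the opposed genes it was 0.278 for PHGDH, and -0.314, -0.513 and -0.278 for TTC17, GRK3 and CYP24A1. Of the 8, 3 remained among the highest with Spearman's rho, 5 after cyclic loess and 4 to 8 with 1 array left out. The other family members had an r with AMTN of 0.547 (ODAM), 0.423 (ENAM), 0.297 (AMBN), 0.168 (IBSP) and -0.03 (SPP1).

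**Figure D5:**
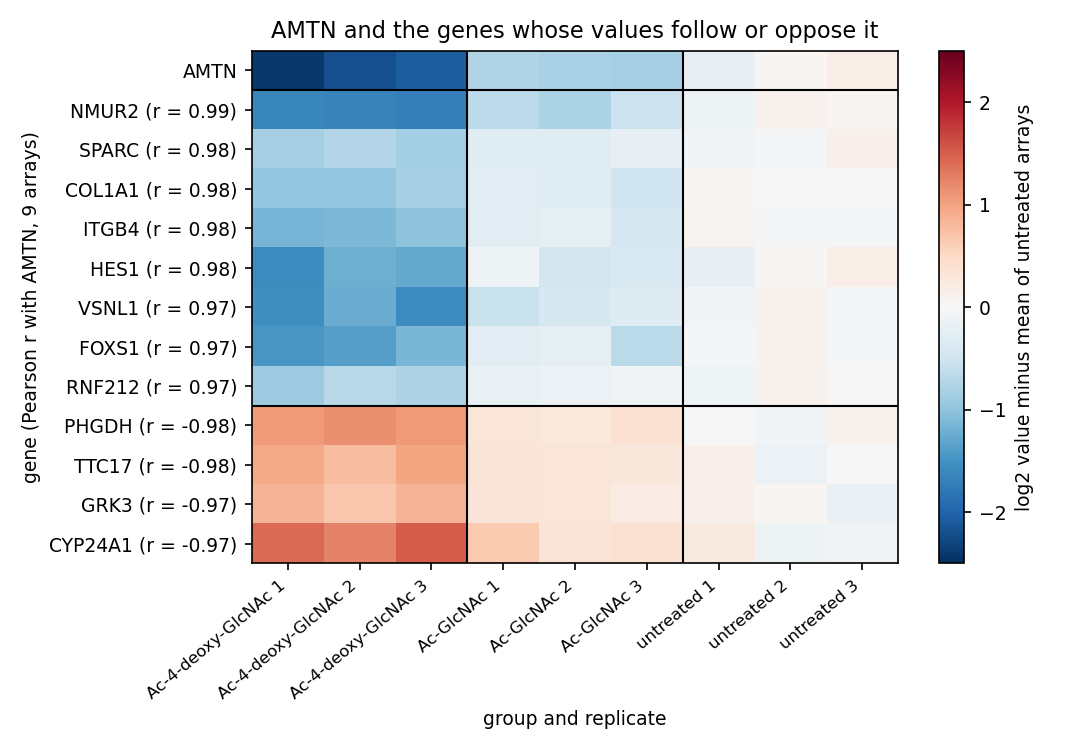
Log2 value minus the mean of the untreated arrays (colour) for AMTN, the 8 genes most like it and the 4 most opposed, on each of the 9 arrays; r is Pearson's. Blue is lower and red higher than untreated, and the Ac-4-deoxy-GlcNAc arrays are the strongest coloured in every row.

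Markers of the labelled cell type were checked against the array medians. The epithelial and tumour genes KRT8, KRT18, KRT19, EPCAM, ERBB2, CDH2 and PAX8 lay above the array median on all 9 arrays, while the measured leukocyte, endothelial and adipocyte markers lay below it. Of the fibroblast markers, COL1A1 was above the median on all 9 arrays and LUM below it on 1, while DCN, COL3A1 and PDGFRB were below it on all 9. Of the ameloblast markers AMBN, ENAM and MMP20, 0 lay above the median on any array, while AMTN was above it on all 9. Among osteoblast markers RUNX2 was above the median on every array and SP7, ALPL and IBSP were below it.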

How the data were processed

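SKOV3 RNA was measured on 9 arrays, 3 per group, with groups and replicate numbers from the sample titles. The deposited values are log2 signals, 1 per probe set and array. Per the submitters' processing notes the authors used RMA, Partek and hg18; versions and filters are not given in the sources used here. Array medians were close, but the SD over probe sets was 1.92 on untreated replicate 2 and 2.07 to 2.18 elsewhere. No scanner files were used, so signal over background is unknown, and the number of arrays limits the precision (median SE of a difference 0.110). Symbols came from the platform annotation and were updated through RefSeq gene identifiers (14385 of 14413 found). Promoter sequences are RefSeq's, build GRCh38.p14, and all 6 genes matched.

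The values were analysed with limma 3.58.1 in R 4.3.3 (lmFit, eBayes), with all 9 arrays in 1 fit, group as the only term and two-sided tests, adjusted by Benjamini-Hochberg across the 17859 probe sets. An adjusted p under 0.05 was called. The fit was tested on simulated arrays with independent noise. These held no array with a narrower range like that of untreated replicate 2, so they do not bear on the dim genes there. Where a gene had several probe sets, the brightest was used. Named were the 6 members, called genes of 6 lists and of the chromosome 4 neighbours (up to 5 per comparison, or those with the smallest p), the nearest neighbours, and the genes most like or opposed to AMTN. Listed genes that were not called are also named where they are receptors, regulators or relatives of the members, chosen after their values were seen. The members and lists were chosen with earlier results of these data known. P-values measure the spread between separate flasks of 1 line. No pairing of arrays by replicate number is stated, and the main fit used none. Deviations of same-numbered arrays had an r from -0.245 to 0.369. Between Ac-GlcNAc and untreated it was 0.142, 0.0499 and 0.369, and whether these arrays were handled together was not tested.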

Additional observations from a re-analysis of the deposited data

How the results depend on the processing

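Over the 20 alternatives the AMTN log2 difference ran from -2.32 to -2.11 with Ac-4-deoxy-GlcNAc and from -0.92 to -0.72 with Ac-GlcNAc. Between the compounds it ran from -1.50 to -1.32. The replicate block, the level filters, the trend and robust options and the compared arrays alone cannot change this difference. AMTN was chosen by these values, so its kept direction is a description and not a test. Of the 5 relatives, ODAM and ENAM passed with Ac-GlcNAc under array weights (-0.345 and -0.337). That setting called 9.85% of all probe sets with Ac-GlcNAc, against 0.442% in the main fit. With 1 array left out, ODAM ran from -0.447 to -0.183 and ENAM from -0.452 to -0.121 with Ac-4-deoxy-GlcNAc, and from -0.522 to -0.259 and -0.552 to -0.222 with Ac-GlcNAc. Signs turned only for uncalled values near 0. With Ac-4-deoxy-GlcNAc against untreated, AMBN was 0.0694 after cyclic loess, 0.00735 after quantile normalization and 0.00957 with the SD covariate, SPP1 was -0.0239 and -0.000656 and IBSP 0.00422 and 0.0143 under the same normalizations. With 1 array left out, SPP1 ran from -0.0284 to 0.0682 and IBSP from -0.147 to 0.0258. Between the compounds IBSP was -0.0532 with array weights, -0.0566 with replicate 1 of Ac-4-deoxy-GlcNAc and replicate 2 of untreated both dropped (a setting chosen after seeing the data) and -0.0566 to 0.116 with 1 array left out, and ENAM was -0.0167 with the SD covariate. The cause of these turns was not tested.

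Counts moved more. Of the listed genes, 24 were called with Ac-4-deoxy-GlcNAc, but 15 above the median level, 15 on the compared arrays alone, 11 with the SD covariate, 13 without both arrays, 11 with a 1.5-fold minimum and 13 to 32 with 1 array left out (13 without Ac-4-deoxy-GlcNAc replicate 1, 14 without its replicate 3). With Ac-GlcNAc 2 were called, but 6 with the replicate block, 1 with median centring, 17 with array weights, 0 with the SD covariate, 0 without both arrays and 0 to 13 with 1 left out (13 without untreated replicate 1, and 0 without untreated replicate 2 or any Ac-GlcNAc array). Between the compounds 9 were called, but 16 with array weights, 4 with the fold minimum and 3 to 12 with 1 left out. Over all probe sets the 1968 called with Ac-4-deoxy-GlcNAc were 818 on the compared arrays, 596 with the SD covariate, 730 without both arrays, 478 with the fold minimum and 604 to 3076 with 1 left out. The 79 with Ac-GlcNAc were 324 with the replicate block, 47 after cyclic loess, 36 after quantile normalization, 32 with median centring, 154 above the median level, 141 with trend and robust options, 1760 with array weights, 48 on the compared arrays, 2 with the SD covariate, 49 without both arrays and 4 to 1359 with 1 left out. The 425 between the compounds were 1187 with array weights, 189 with the fold minimum and 141 to 659 with 1 left out. The block changed no call of the 5 relatives, and the arrays share a number without a stated pairing. Of the 8 genes most like AMTN, 3 were shared with Spearman's rho, 5 after cyclic loess, 4 at an SD of at least 0.5 and 4 to 8 with 1 left out. Filters on level left out ODAM and AMBN at the 25th percentile and also ENAM and IBSP at the 50th, so those gave no value. The 50th percentile filter, given above as the median level, kept 8930 of the 17859 probe sets. Its counts of 15 and 154 therefore came from smaller totals than the main counts of 24 and 79. With Ac-4-deoxy-GlcNAc the share of listed genes called was 23.8% after this filter and 18.9% in the main fit. Over all probe sets these shares were 18.8% and 11.0%, and with Ac-GlcNAc 1.72% and 0.442%.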
